A study of Homo sapiens with 4 samples.

Results

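The 9 genes BRCA1, BRCA2, PALB2, ATM, ATR, CHEK1, CHEK2, BARD1 and FANCD2, which act in homologous recombination and the DNA damage checkpoint, were followed through chromatin accessibility profiles of a pancreatic carcinoma line. They were taken by name, as 9 of 19970 protein-coding genes of the RefSeq annotation (GRCh38.p14), by a rule that uses no measured value. Earlier results of these data were known when they were chosen. The open regions of a gene were the peaks overlapping it or the 5 kb on either side, and the regions within 5 Mb on each side of that window served as its copy-number control.

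Homologous recombination repairs a broken chromosome by copying the intact sister chromatid. The kinases ATM and ATR sense breaks and stalled replication forks and activate the checkpoint kinases CHEK2 and CHEK1, which delay the cell cycle. BRCA1 with its partner BARD1 promotes resection of the broken ends, PALB2 joins BRCA1 to BRCA2, and BRCA2 prepares the resected strand for the search for its copy. FANCD2 is the protein that the Fanconi anaemia core complex ubiquitinates at DNA crosslinks. Inherited loss of BRCA2, BRCA1, PALB2 or ATM is a known risk factor for pancreatic cancer.

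Single-cell ATAC-seq counts transposase insertions in open chromatin of single nuclei. The cells were Panc1, an established human pancreatic ductal carcinoma line, recovered from transplanted mice that received Carrier (mice 12 and 31) or Inflachromene (mice 11 and 35), a compound that binds the high mobility group proteins HMGB1 and HMGB2. Each of the 4 libraries is named for 1 mouse, so a group had n = 2, and the labels give no dose, duration or age of the mice. Since counts were summed over the barcodes of a library, a gene open in more nuclei and more insertions per nucleus cannot be told apart.

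The libraries held 2039 to 5186 barcodes and 27088391 to 39947056 counts, of which 83.1% to 89.8% fell in the 50771 regions with a peak in all 4 libraries (consensus regions, median width 936 bp). Carrier 12 and Inflachromene 11 shared 1209 barcode sequences, but any pair of libraries shared only 2 to 10 barcodes of at least 2000 counts. An open region was found in the windows of 5 of 5 carcinoma (KRT8, KRT18, KRT19, KRT7 and EPCAM), 5 of 5 myeloid, 4 of 5 endothelial, 3 of 5 fibroblast, 3 of 5 T and NK cell, 3 of 5 endocrine and 1 of 5 acinar markers, where it can belong to a neighbouring gene. The acinar markers PRSS1, CPA1, CTRB1 and PTF1A had none. A start-site region was found for 0 of 4 T and NK cell, 0 of 2 endothelial and 0 of 3 acinar markers listed with a start, and for 2 of 4 myeloid, 1 of 1 carcinoma, 1 of 1 fibroblast and 1 of 5 endocrine markers. The windows of the fibroblast markers summed to 129 and 127 CPM (counts scaled to a fixed library total) in Carrier and to 115 and 114 in Inflachromene. Those of the T and NK cell markers summed to 95.8 and 102 CPM in Carrier and to 90.6 and 94.3 in Inflachromene. In each of these lists 2 of 3 windows were lower without overlap, beside 17.6% of all windows. The sums of the carcinoma, endothelial, myeloid, acinar and endocrine markers overlapped between groups. Of their windows, 1 of 5 carcinoma and 1 of 3 endocrine markers were higher without overlap, beside 15.7% of all windows. Lower without overlap was 1 of 5 myeloid markers. In edgeR 1 carcinoma window had an unadjusted p under 0.05, beside 4.65% of all windows, and none was called. The part of any of these markers in the results was not tested.

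All 9 genes had an open consensus region over an annotated start. Over or within 1 kb of a listed start (start-site region), 10463 of 15811 protein-coding genes (66.2%) had one, a wider criterion. Most of the regions of the 9 genes served more than 1 gene. In 7 of 9 (77.8%) the region also held the start of another gene on the opposite strand, compared with 3159 of 10463 (30.2%) of all protein-coding genes with a start-site region. The partner was protein-coding for 4 of them: ZAR1L for BRCA2, DCTN5 for PALB2, NPAT, a histone gene coactivator, for ATM, and HSCB, an iron-sulphur cluster chaperone, for CHEK2. It was a noncoding or other gene for BRCA1 (NBR2), CHEK1 (LOC118567325) and BARD1 (SNHG31), while ATR and FANCD2 had none. The opposite starts lay 145 bp apart at BRCA2, 156 bp at PALB2, 193 bp at BRCA1, 212 bp at CHEK2, 330 bp at CHEK1, 429 bp at ATM and 546 bp at BARD1. Insertions in such a region cannot be assigned to 1 gene of the pair, and this applies to every value of these 7 genes given here.

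The 3 tightest coding pairs are shown because their shared promoters are short enough to read whole. The sequences are RefSeq windows (GRCh38.p14) of 250 bases before to 50 after the start, 5′ to 3′ on the gene's strand, with capitals from the partner's start to that of the named gene (146, 157 and 213 bases). They lie at chr13:32315258-32315557 on the plus strand for BRCA2, at chr16:23641261-23641560 on the minus strand for PALB2 and at chr22:28741771-28742070 on the minus strand for CHEK2.
BRCA2: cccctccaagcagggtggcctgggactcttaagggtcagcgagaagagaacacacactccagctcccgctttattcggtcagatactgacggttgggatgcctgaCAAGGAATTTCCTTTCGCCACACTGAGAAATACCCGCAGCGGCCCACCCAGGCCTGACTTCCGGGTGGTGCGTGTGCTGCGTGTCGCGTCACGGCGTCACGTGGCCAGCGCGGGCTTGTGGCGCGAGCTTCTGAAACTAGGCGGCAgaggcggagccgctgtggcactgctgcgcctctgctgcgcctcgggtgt
PALB2: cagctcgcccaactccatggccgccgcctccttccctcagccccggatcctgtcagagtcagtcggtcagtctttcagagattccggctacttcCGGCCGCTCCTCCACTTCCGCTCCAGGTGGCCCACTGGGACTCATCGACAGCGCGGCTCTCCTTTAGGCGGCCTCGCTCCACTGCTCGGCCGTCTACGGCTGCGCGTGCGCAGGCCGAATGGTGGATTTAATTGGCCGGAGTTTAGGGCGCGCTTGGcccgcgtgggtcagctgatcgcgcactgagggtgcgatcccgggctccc
CHEK2: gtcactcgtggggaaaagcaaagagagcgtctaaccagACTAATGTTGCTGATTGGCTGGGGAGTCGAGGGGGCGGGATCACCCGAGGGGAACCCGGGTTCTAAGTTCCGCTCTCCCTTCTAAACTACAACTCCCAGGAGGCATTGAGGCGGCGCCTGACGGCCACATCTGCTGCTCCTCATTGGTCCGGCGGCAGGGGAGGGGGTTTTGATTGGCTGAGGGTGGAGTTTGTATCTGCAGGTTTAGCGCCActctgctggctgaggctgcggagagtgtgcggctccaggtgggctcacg

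BRCA1 had starts in 2 open regions, 44963 bp apart. The proximal start lay in chr17:43125043-43125941, together with that of NBR2. The distal start lay in chr17:43169913-43170685, together with starts of NBR1 and LOC101929767, in a region that overlaps the pseudogene BRCA1P1. A local alignment of the promoter windows covered 155 columns with 137 identical bases (88.4%), 17 mismatches and 1 gap column, and held 5 identical runs of at least 12 bases, the longest of 21. Both windows are shown, on the minus strand, with these runs in capitals (proximal at chr17:43125315-43125614, distal at chr17:43170278-43170577). Whether reads of 1 copy were placed at the other was not tested, so the BRCA1 values are given as uncertain in that respect.
BRCA1 proximal start: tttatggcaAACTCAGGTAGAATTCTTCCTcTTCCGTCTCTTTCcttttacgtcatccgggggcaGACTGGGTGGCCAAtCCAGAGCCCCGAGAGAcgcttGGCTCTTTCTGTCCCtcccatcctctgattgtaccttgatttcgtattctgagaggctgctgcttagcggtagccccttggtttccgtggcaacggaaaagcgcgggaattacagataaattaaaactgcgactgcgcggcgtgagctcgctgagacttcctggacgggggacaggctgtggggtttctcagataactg
BRCA1 distal start: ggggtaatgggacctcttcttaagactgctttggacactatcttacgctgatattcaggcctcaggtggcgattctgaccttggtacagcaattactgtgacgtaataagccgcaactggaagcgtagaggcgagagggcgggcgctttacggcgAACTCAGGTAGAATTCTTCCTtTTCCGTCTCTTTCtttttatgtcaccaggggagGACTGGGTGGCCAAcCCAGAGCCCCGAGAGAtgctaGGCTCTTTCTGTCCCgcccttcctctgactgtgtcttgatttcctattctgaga

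The promoters differed in the short motifs they held, searched on both strands in the same windows. The letters CGGAAG, the core bound by ETS factors, occurred in 6 of 9 genes (BRCA1, BRCA2, PALB2, ATM, ATR and FANCD2) and in 19.5% of 35116 RefSeq promoters. CCAAT occurred in 5 (BRCA1, PALB2, ATM, CHEK1 and CHEK2; 34.6% of all promoters) and the GC box GGGCGG in 5 (ATR, CHEK1, CHEK2, BARD1 and FANCD2; 45.0%). The E2F-like letters TTTNNCGC were in CHEK2 and FANCD2 (6.89%), the cyclic AMP response element core TGACGT in BRCA1 and FANCD2 (7.98%), an NRF1-like motif in PALB2 and ATM (5.78%), and TTTGAA in ATM (15.2%). GC content ran from 53.3% at BRCA1 to 73.7% at BARD1, beside a median of 58.7% over all promoters. These matches are descriptions of letters and not of bound sites.

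FANCD2 and ATM are shown because their windows were the 2 called in the comparison between barcodes given further on. Capitals mark TTTNNCGC, CGGAAG or TGACGT on either strand (FANCD2 at chr3:10026187-10026486 and ATM at chr11:108222817-108223116, both on the plus strand). In FANCD2 the E2F-like letters began at -2 relative to the start, copies of CGGAAG at -69 and -60 and copies of TGACGT at -176 and -46. ATM held a single CGGAAG, at -13.
FANCD2: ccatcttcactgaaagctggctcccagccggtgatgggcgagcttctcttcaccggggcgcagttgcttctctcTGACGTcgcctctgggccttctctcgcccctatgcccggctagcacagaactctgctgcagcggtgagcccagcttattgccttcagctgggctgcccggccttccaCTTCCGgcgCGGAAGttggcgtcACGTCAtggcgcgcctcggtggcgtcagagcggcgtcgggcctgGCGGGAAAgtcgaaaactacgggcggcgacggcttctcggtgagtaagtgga
ATM: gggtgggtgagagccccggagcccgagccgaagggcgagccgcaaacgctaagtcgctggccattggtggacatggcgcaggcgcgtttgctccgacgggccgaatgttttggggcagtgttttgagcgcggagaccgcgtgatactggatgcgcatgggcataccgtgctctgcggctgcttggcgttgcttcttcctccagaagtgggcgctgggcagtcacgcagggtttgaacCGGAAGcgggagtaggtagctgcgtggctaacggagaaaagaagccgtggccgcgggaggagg

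The 9 windows held 26 regions with a peak in any library. A peak was called in all 4 libraries in 15, in 2 libraries in 4 and in 1 library in 7. Of the 15 consensus regions 13 held an annotated start, against 0 of the 11 others. The start-site regions held 610 to 4188 counts per library, and the 11 less frequent regions 31 to 263 counts where they were called. Although the genes span 38.1 kb (PALB2) to 146 kb (ATM), the windows of ATM and CHEK1 held only the start-site region, and those of PALB2, BARD1 and FANCD2 held only that consensus region. Accessibility of these genes was therefore measured almost entirely at starts.

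**Figure D1:**
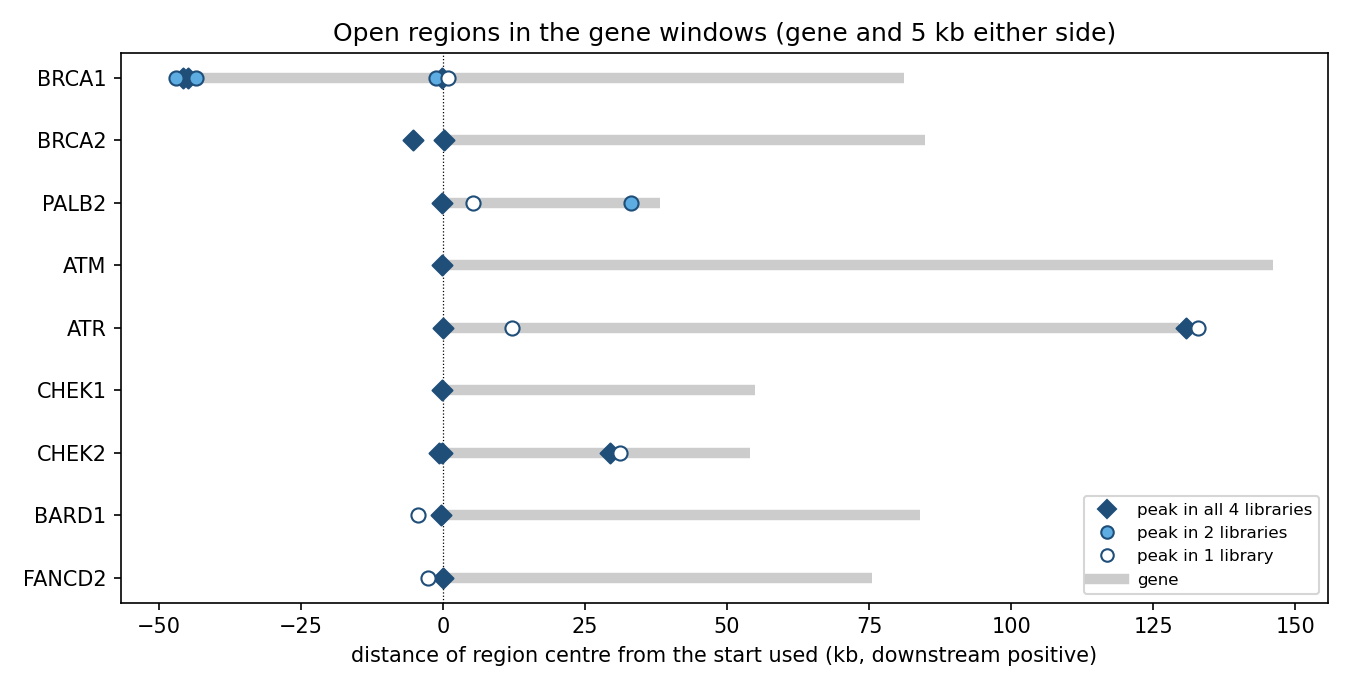
Open regions in the windows of the 9 genes, by distance from the start of the gene (horizontal axis, kb), with the number of libraries in which each region had a peak. Of the 15 regions found in all 4 libraries 13 hold a start, and the other 11 regions were called in 1 or 2 libraries.

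Levels at the start sites were compared per length, as CPM of consensus counts per kb of region, averaged over the 4 libraries. ATM had the highest level (131 CPM per kb, libraries 115 to 152), at the 99.6th percentile of all consensus regions, followed by BARD1 (122, libraries 106 to 134). ATR (79.5, libraries 74.5 to 91.2), CHEK2 (68.5, libraries 59.4 to 76.0), CHEK1 (66.8, libraries 57.4 to 80.8) and PALB2 (58.3, libraries 55.6 to 60.5) came next. FANCD2 (44.8, libraries 37.6 to 48.3) and BRCA1 (41.6, libraries 40.2 to 44.3) were lower, and BRCA2 was lowest (26.5, libraries 23.8 to 28.3; 75.7th percentile). The ranges of neighbours in this order overlapped except between BARD1 and ATR, between PALB2 and FANCD2 and between BRCA1 and BRCA2. ATM and BARD1 were the most open of these starts and BRCA2 the least open in all 4 libraries. BRCA1 was ranked by its proximal start. Its distal start had 46.3 CPM per kb (libraries 41.7 to 51.5), above the mean of FANCD2. These levels were not adjusted for copy number.

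No start-site region of the 9 genes passed the test between Inflachromene and Carrier. In edgeR's quasi-likelihood test over all 50771 consensus regions, 0 of 9 passed an adjusted p of 0.05, where 0% of all regions did, and 0 of 9 had an unadjusted p under 0.05, which 4.48% of all regions had. DESeq2 called 0 of 9 and 0.0638% of the regions it gave an adjusted p. The adjusted p in edgeR was 1.00 for each of the 9. The log2 fold change (Inflachromene over Carrier) of 6 of the 9 was above 0, as was that of 51.7% of all regions.

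Of the sensor kinases, ATM had the highest level of the 9. The ATM region (chr11:108222444-108223460) had 117 and 134 CPM in Carrier 12 and 31 and 155 and 126 CPM in Inflachromene 11 and 35. Inflachromene 11 was the highest and Inflachromene 35 lay between the Carrier libraries, so the groups overlapped. The log2 fold change was 0.16 (SE 0.17, 95% interval -0.22 to 0.54). The ATR region (chr3:142578373-142579279) had 67.6 and 68.4 CPM in Carrier and 82.7 and 69.6 CPM in Inflachromene. Both Inflachromene libraries were above both Carrier libraries, one of them by little, and the log2 fold change was 0.16 (SE 0.15).

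CHEK1 is the kinase that ATR activates. Its region (chr11:125625517-125626451) had 53.7 and 60.7 CPM in Carrier 12 and 31 and 75.6 and 60.1 CPM in Inflachromene 11 and 35, a log2 fold change of 0.25 (SE 0.16, unadjusted p = 0.169 in edgeR). Inflachromene 11 stood above the rest and Inflachromene 35 lay below Carrier 31. The log2 fold change was 0.07 without Inflachromene 11 and 0.39 without Inflachromene 35. CHEK2, the kinase that ATM activates, had 30.0 and 34.2 CPM in Carrier and 38.3 and 35.7 CPM in Inflachromene at chr22:28741720-28742223. Its groups did not overlap, and the log2 fold change was 0.21 (SE 0.16).

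The recombination mediators BRCA1, BARD1, PALB2 and BRCA2 had start-site log2 fold changes between -0.06 and 0.04. The BRCA1 proximal start had 36.2 and 39.9 CPM in Carrier and 36.9 and 36.6 CPM in Inflachromene (log2 fold change -0.05, SE 0.15). At BARD1 (chr2:214809500-214810413) the Carrier libraries had 97.3 and 123 CPM and spanned both Inflachromene libraries, at 120 and 107 CPM (log2 fold change 0.04, SE 0.17). At PALB2 (chr16:23640952-23641874) Carrier had 54.1 and 54.0 CPM and Inflachromene 55.9 and 51.3 CPM (log2 fold change -0.01, SE 0.14). The groups overlapped in all 3. BRCA2 (chr13:32315279-32316191) had 25.3 and 24.1 CPM in Carrier and 25.8 and 21.7 CPM in Inflachromene, again overlapping (log2 fold change -0.06, SE 0.17).

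FANCD2 (chr3:10025913-10026857) had 35.5 and 43.4 CPM in Carrier and 45.6 and 44.9 CPM in Inflachromene. Both Inflachromene libraries were above both Carrier libraries, by less than the gap between the Carrier libraries, and the log2 fold change was 0.20 (SE 0.16). Groups that did not overlap, with Inflachromene higher, were thus found at ATR, CHEK2 and FANCD2, 3 of 9, beside 14% of all regions. None of the 9 had non-overlapping groups with Inflachromene lower, beside 17.5% of all regions. Inflachromene 11 was above Inflachromene 35 at all 9 starts, and it also had the largest share of consensus counts at protein-coding starts (44.7%, against 40.7% and 43.6% in Carrier 12 and 31 and 40.6% in Inflachromene 35). The part of that share in these values was not tested, but a fit over start-site regions alone gave CHEK1 a log2 fold change of 0.19 with an unadjusted p of 0.034, beside 5.88% of all start-site regions with an unadjusted p under 0.05, and called 0 of 9.

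**Figure D2:**
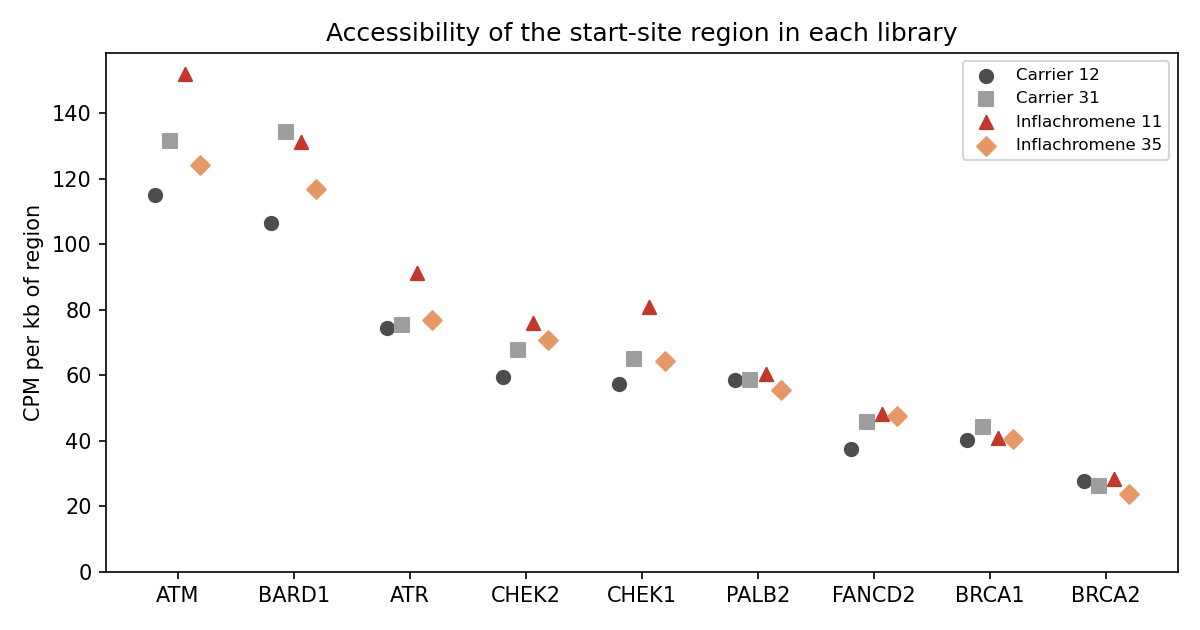
Accessibility of the 9 start-site regions in each library (vertical axis, CPM per kb of region), with 1 point per library, coloured by group. ATM and BARD1 are the highest in every library and BRCA2 the lowest, and Inflachromene 11 lies above Inflachromene 35 at all 9.

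The 6 consensus regions away from the chosen starts did not pass the test either (edgeR, 0 of 6 called and 0 of 6 with an unadjusted p under 0.05; 0 of 6 by DESeq2, which gave no adjusted p to 1 of them). The lowest unadjusted p was that of a region upstream of BRCA2 within ZAR1L (chr13:32309791-32310765). It had 10.3 and 8.45 CPM in Carrier and 7.15 and 7.05 CPM in Inflachromene, so both Inflachromene libraries were lower (log2 fold change -0.40, SE 0.23, unadjusted p = 0.107). A region inside CHEK2 (chr22:28711947-28712968) was the least open of the 15, at 2.65 and 3.90 CPM in Carrier and 3.60 and 5.15 CPM in Inflachromene (log2 fold change 0.43, SE 0.30, unadjusted p = 0.180). The region at the XRN1 start near ATR (chr3:142447595-142448472) had a log2 fold change of -0.09 and the HSCB-side region at CHEK2 (chr22:28742262-28742816) one of 0.05. The distal BRCA1 start had -0.02 and the adjoining NBR1 region (chr17:43170787-43171498) -0.06, close to the -0.05 of the proximal start.

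Gene windows took the consensus regions of each gene together and were fitted and scaled separately from the regions. The windows of PALB2, ATM, CHEK1, BARD1 and FANCD2 held the start-site region alone, so for these 5 genes the window is the same count in another fit and no second measure. In edgeR over 15830 protein-coding genes with a region, 0 of 9 windows passed an adjusted p of 0.05 (0% of all windows) and 0 of 9 had an unadjusted p under 0.05 (4.65% of all windows). DESeq2 called 0 of 9 and 0.0632% of all windows. CHEK1 came closest. Its window had 51.8 and 54.5 CPM in Carrier and 65.8 and 57.3 CPM in Inflachromene, both Inflachromene libraries higher, with a log2 fold change of 0.21 (SE 0.09, 95% interval -0.01 to 0.43, unadjusted p = 0.059, adjusted p = 0.981).

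The FANCD2 window had 34.3 and 38.9 CPM in Carrier and 39.7 and 42.8 CPM in Inflachromene (log2 fold change 0.17, SE 0.10, unadjusted p = 0.132). The ATM window had 113 and 120.2 CPM in Carrier and 135 and 120.5 CPM in Inflachromene (log2 fold change 0.13, SE 0.09). The BRCA2 window had 34.3 and 29.2 CPM in Carrier and 28.7 and 27.5 CPM in Inflachromene (log2 fold change -0.18, SE 0.12, unadjusted p = 0.173), which moved to -0.05 without Carrier 12, to -0.29 without Carrier 31 and to -0.10 for the gene without the 5 kb on either side. The groups did not overlap in these windows, with Inflachromene higher at FANCD2 and ATM and lower at BRCA2. With CHEK1, Inflachromene was higher without overlap in 3 of 9 windows (15.7% of all windows) and lower in 1 of 9 (17.6%). At the start sites ATM and CHEK1 overlapped on the same counts, so whether their groups overlap depends on the scaling. The other log2 fold changes were 0.12 at CHEK2, 0.02 at ATR, 0.02 at BARD1, -0.04 at PALB2 and -0.07 at BRCA1, with SEs of 0.08 to 0.10. The ATR window also holds the region at the XRN1 start, the CHEK2 window the HSCB-side region and the BRCA1 window the NBR1 region. For the gene without the 5 kb on either side, ATR was at 0.12, CHEK2 at 0.20 and BRCA1 at -0.06.

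The neighbourhoods of 5 Mb on each side, which hold 135 (ATR) to 491 (BRCA1) consensus regions, were summed as well, without a test. Around FANCD2 on the short arm of chromosome 3 the flanks summed to 5404 and 6195 CPM in Carrier 12 and 31 and to 6368 and 7244 CPM in Inflachromene 11 and 35. Both Inflachromene libraries were higher, with a log2 ratio of the means of 0.23, beside the fitted 0.17 of the gene window itself. Flank CPM were scaled to consensus counts without TMM, so this ratio and the window value are scaled differently. The flanks of ATM (0.10) were also higher in both Inflachromene libraries, those of BRCA1 (-0.07) lower, and those of CHEK1 (0.10) overlapped. Flanks without overlap were thus higher at 2 of 9 genes, beside 16.2% of all genes with a window, and lower at 1 of 9, beside 16.5%. The flanks of the other 5 genes were within 0.03 of 0 on the log2 scale.

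With the flanks divided out, the log2 fold change of FANCD2 was -0.06 (0.17 before) and that of ATM 0.02 (0.13 before). CHEK1 went to 0.11, CHEK2 to 0.08, BRCA1 to -0.01 and PALB2 to -0.06, while ATR and BARD1 stayed at 0.02. BRCA2, whose flanks were alike in all libraries (1819 to 1880 CPM), was at -0.19 (unadjusted p = 0.170), and at -0.09 without Inflachromene 35, -0.11 without Carrier 12 and -0.30 without Inflachromene 11. In this fit 0 of 9 genes were called by edgeR (0% of all windows) and 0 of 9 had an unadjusted p under 0.05 (2.6% of all windows). The log2 fold change was above 0 for 5 of 9, beside 47.3% of all windows. BRCA2 was the 1 gene of 9 whose ratios to the flank did not overlap between groups, with Inflachromene lower (15.2% of all windows), and none was higher without overlap (10.8%). The BRCA2 window also holds the region within ZAR1L, which had a log2 fold change of -0.40 before division by flanks. In the region fit with a flank offset, the start-site region alone was at -0.11 for BRCA2, 0.14 for ATR, 0.15 for CHEK2 and -0.02 for BRCA1.

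**Figure D3:**
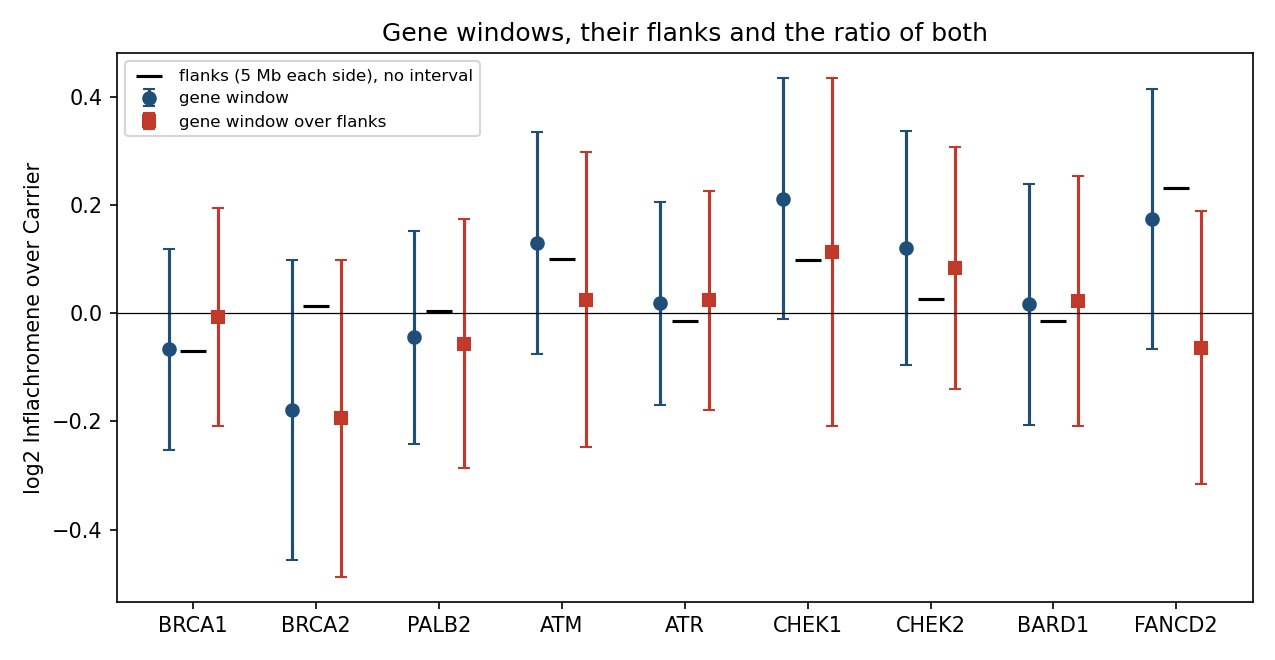
Log2 fold change (Inflachromene over Carrier) of each gene window, of its flanks of 5 Mb on each side, and of the window over the flanks. FANCD2 goes from 0.17 to -0.06 when its flanks (0.23) are divided out. The BRCA2 window, which also holds a region within ZAR1L, stays at -0.18 and -0.19.

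Within the libraries, barcodes differed in the share of their counts on the short arm of chromosome 9. Barcodes of at least 2000 counts whose share was under 0.75 times the median (9p-low) made up 8.65% and 21.0% of such barcodes in Carrier 12 and 31 and 27.2% and 26.8% in Inflachromene 11 and 35. This is a range of a continuous share and not a cell type: 104, 92, 242 and 351 barcodes lay between 0.70 and 0.80 times the median. In Carrier 31 the median count was 15243 in 9p-low and 35277 in the other such barcodes. The medians were 16032 and 16349 in Carrier 12, 19111 and 17686 in Inflachromene 11, and 20570.5 and 19904 in Inflachromene 35. The part of this depth in the comparison was not tested. None of the 9 genes lies on chromosome 9, and their windows were compared between 9p-low and other barcodes with the library as a block.

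The FANCD2 and ATM windows were called higher in 9p-low barcodes before their flanks were divided out. FANCD2 differed by 0.64 and 0.39 (log2, 9p-low over other) in Carrier 12 and 31 and by 0.56 and 0.18 in Inflachromene 11 and 35, higher in 4 of 4 libraries. The fitted difference was 0.43 (SE 0.09, edgeR adjusted p = 0.0040). ATM differed by 0.35 and 0.14 in Carrier and by 0.35 and 0.23 in Inflachromene, also higher in 4 of 4, with a fitted difference of 0.27 (SE 0.06, edgeR adjusted p = 0.0081). These were 2 of 9 windows called, beside 15% of all windows, a share too near to theirs to set them apart. BARD1 was next at -0.19 (edgeR adjusted p = 0.102), lower in 3 of 4 libraries. CHEK1 (0.14), ATR (0.13), CHEK2 (0.08), BRCA2 (-0.07), BRCA1 (-0.11) and PALB2 (-0.12) were not called.

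Neither window was called over its flanks. Over their flanks FANCD2 differed by -0.05 (edgeR adjusted p = 0.872) and ATM by 0.06 (edgeR adjusted p = 0.749), with 0 of 9 called and 4.09% of all windows called. On chromosome 11, where ATM and CHEK1 lie, 589 of 939 windows were called higher in 9p-low barcodes and 3 lower, with a median of 0.31. On the short arm of chromosome 3, where FANCD2 lies, 126 of 428 were called higher and 21 lower (median 0.04). On the short arm of chromosome 9, which defined the barcodes, 107 of 155 were called lower (median -0.47). Both calls were lost without Inflachromene 11 (FANCD2 0.38, edgeR adjusted p = 0.051; ATM 0.24, edgeR adjusted p = 0.086), and at a limit of 0.6 times the median FANCD2 was at -0.14. Without 9p-low barcodes the flanks of FANCD2 differed between groups by 0.19 (0.24 over all barcodes of at least 2000 counts) and overlapped, and those of ATM by 0.04 (0.10).

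**Figure D4:**
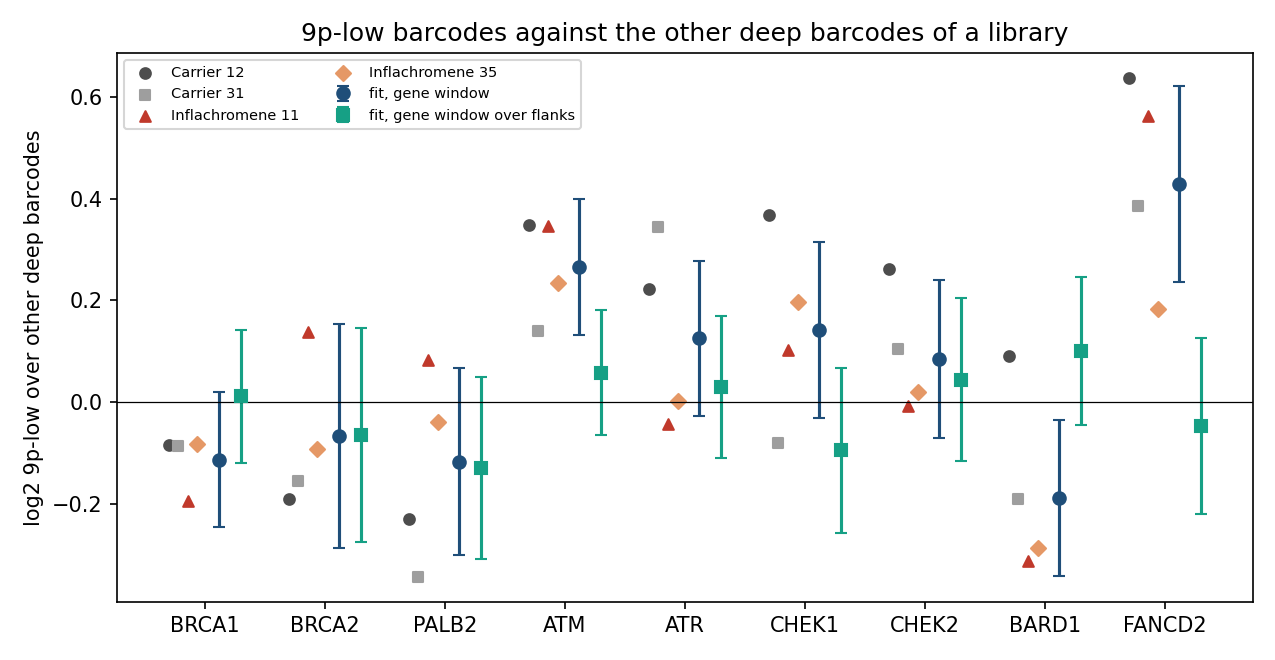
Log2 difference of each gene window between 9p-low and other barcodes, per library, with the fitted difference over the 4 libraries. FANCD2 (0.43) and ATM (0.27) are above 0 in 4 of 4 libraries, and the other 7 windows were not called.

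Other genes of the pathway were taken from lists. Those of 24 other homologous recombination, 16 Fanconi anaemia, 23 checkpoint and 13 end-joining genes gave 76 windows, of which edgeR called 0, DESeq2 called 0 and 1 had an unadjusted p under 0.05, beside 0%, 0.0632% and 4.65% of all windows. Their window log2 fold changes were above 0 for 9 of 24 homologous recombination genes (median -0.03), 7 of 16 Fanconi anaemia genes (median -0.01), 12 of 23 checkpoint genes (median 0.00) and 5 of 13 end-joining genes (median -0.01). The 9 genes had 6 above 0 and a median of 0.02, and all 15830 windows had 7887 above 0 (49.8%) and a median of 0.00. Of the 63 listed genes with a start entry, 62 had an open start-site region.

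The 1 window with an unadjusted p under 0.05 was that of WEE1, the kinase that holds CDK1 inactive until DNA is repaired. It had 149 and 154 CPM in Carrier and 181 and 175 CPM in Inflachromene (log2 fold change 0.23, SE 0.08, unadjusted p = 0.020, adjusted p = 0.981), and 0.04 over its flanks. In the recombination list the lowest p-values belonged to genes that include the nuclease subunit MRE11 (0.16) and the BRCA2-binding SEM1 (-0.15). In the Fanconi list they belonged to FANCL (0.21) and UBE2T (-0.12), the ligase and conjugating enzyme that ubiquitinate FANCD2, and to FANCE (-0.10) and FAAP100 (0.21). The other checkpoint genes were H2AX (0.17), RAD9A (0.16) and the ATR partner ATRIP (0.23), and the end-joining genes were the polymerases POLM (-0.15) and POLQ (-0.15), NHEJ1 (0.11) and the ligase LIG3 (-0.09). None of these genes passed the test. Over their flanks MRE11 (-0.01), FANCL (0.04), SEM1 (-0.08), UBE2T (-0.06), H2AX (0.09), RAD9A (0.05), POLM (-0.05) and LIG3 (-0.03) lay closer to 0, and FANCE (-0.09), POLQ (-0.15), NHEJ1 (0.12), ATRIP (0.25) and FAAP100 (0.26) stayed near their window value or moved away from 0.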

How the data were processed

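Nuclei were profiled with the 10x Chromium single-cell ATAC chemistry, and the deposited matrices hold counts per peak and barcode from Cell Ranger ATAC 2.1.0, per the file headers and the submitters' processing notes, which also name Cell Ranger ARC and GRCh38. Of the entries, 82.4% to 84.9% were even. The authors called peaks per library, and the deposited peak lists give other values, start and end positions. The members and lists were chosen with earlier results of these data known.

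Peaks of the 4 libraries were merged (overlap of at least 1 bp) into 128195 regions, 50771 with a peak in every library. Counts were summed per library, since the mouse is the replicate, and tested with edgeR 4.0.16 (R 4.3.3; TMM, filterByExpr, which removed 0 regions, quasi-likelihood test) over all regions, all protein-coding windows, and windows with log flank counts as offset, with Benjamini-Hochberg adjustment at 0.05. CPM were scaled by TMM to consensus counts for regions and to window counts for windows, and without TMM to consensus counts for flanks. The start-site region was the consensus region over a RefSeq start or, failing that, the nearest one within 1 kb. Where a gene had several such regions, the one with the highest mean count was used. Sequences were matched for 9 of 9 genes and compared with biopython 1.88. Scripts were tested on simulated data. Named were all 9 genes, up to 4 genes a list and up to 6 other regions with the lowest unadjusted p. Of the recombination list, 2 such genes are not reported here. Alternatives were DESeq2 1.42.0 and its size factors, no filter, fragments (entries divided by 2), barcodes of at least 2000 counts, these without 9p-low, other flanks and windows, and each library left out. No doublets were called. The mouse genome was not used here.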

Additional observations from a re-analysis of the deposited data

Results flagged for a closer look

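A region in the BRCA1 window at chr17:43168556-43169282, within the pseudogene BRCA1P1, had a peak in both Inflachromene libraries (125 counts in Inflachromene 11 and 138 in Inflachromene 35, 263 in all) and in neither Carrier library. It was singled out for this pattern, by a rule that did not look for the opposite one. The region is 1 of 11 in the windows of the 9 genes that lie outside the consensus regions used for the comparisons. Of all 77424 regions without a peak in every library 6.03% had this pattern and 2.64% the opposite one, and Inflachromene 35 had 96240 peaks against 75717 to 78639 in the other libraries. Counts under it in the Carrier libraries were not analysed here, since a library's table lists only its own peaks, so the absence of a peak gives no fold.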

How the results depend on the processing

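No start-site region or window of the 9 genes, with or without flanks, was called under any alternative, the fits without 1 library included, although leaving out Inflachromene 11 called 3180 of all regions and 316 of all windows, and leaving out Inflachromene 35 called 299 and 86, with 1 group then resting on a lone library assumed to vary like the other. Directions were less stable. Leaving out each library in turn, start-site log2 fold changes ranged from -0.11 to 0.021 at BRCA1, -0.185 to 0.054 at BRCA2, -0.076 to 0.038 at PALB2, -0.11 to 0.22 at BARD1 and 0.071 to 0.39 at CHEK1. Windows ranged from -0.097 to 0.012 at PALB2, -0.045 to 0.088 at ATR, -0.094 to 0.14 at BARD1 and -0.29 to -0.054 at BRCA2. Windows over flanks ranged from -0.051 to 0.040 at BRCA1, -0.11 to 0.0016 at PALB2, -0.14 to 0.18 at ATM, -0.031 to 0.078 at ATR, -0.11 to 0.31 at CHEK1, -0.091 to 0.15 at BARD1, -0.15 to 0.023 at FANCD2 and -0.30 to -0.093 at BRCA2. The sign also turned at the FANCD2 start with a flank offset (-0.063) and at the BARD1 start in the fit over start-site regions (-3.6e-05). It turned in the ATR window with all peaks (-0.00044) or without its start-site region (-0.080). Of the windows over flanks, BARD1 turned with flanks of 2 Mb (-0.0028). The BRCA1 window over flanks turned with flanks of 2 Mb (0.0036), by fragments (0.00046), in barcodes of at least 2000 counts (0.0063) and in these without 9p-low (0.0068). The cause was not tested.

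In the comparison of 9p-low with other barcodes, 0 to 3 windows were called when each library was left out (FANCD2 0.37 to 0.52, ATM 0.24 to 0.31, BARD1 -0.27 to -0.14; BARD1 was called without Carrier 12, edgeR adjusted p = 0.023). With the flank offset 0 were called, and BRCA1 (0.011), CHEK1 (-0.095), BARD1 (0.10) and FANCD2 (-0.048) turned sign, with ATM at 0.058. At the limit of 0.6 also 0 were called, and BRCA1 (0.017), CHEK1 (-0.00075), CHEK2 (-0.10) and FANCD2 (-0.14) turned, with ATM at 0.37. Barcodes under that limit had a median of 3929.5 counts in Carrier 31 and of 15301.5 to 16867 in the other libraries. This comparison, its alternatives and the fit over start-site regions were added after the data were seen. No paired analysis was possible because the mouse numbers of the 2 groups have none in common. With 2 libraries per group, differences within the printed intervals were not detectable.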
